A study of Mus musculus and Homo sapiens with 59 samples.

Results

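The amino acid arm of the ATF4 program was examined as a set of 36 genes: 8 amino acid transporters of the plasma membrane, 11 enzymes of amino acid synthesis and the linked one-carbon metabolism, and 17 tRNA synthetases. The rule took members by name and used no measured value, but the list was chosen with earlier results of these data known. All 36 were present among the 19407 genes of the mouse table and, under the same names in capitals, among the 22192 genes of the human table. The list does not say which members ATF4 binds directly.

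ATF4 is the transcription factor of the integrated stress response, in which kinases that sense amino acid shortage, unfolded protein, double-stranded RNA or heme shortage phosphorylate the translation factor eIF2 alpha. General translation then falls while ATF4 protein is made in larger amounts. ATF4 pairs with C/EBP family proteins on C/EBP-ATF response elements and is known to raise genes that import amino acids, synthesize them and load them onto tRNA. CHOP (Ddit3), the pseudokinase Trib3 and the glutathione-degrading enzyme Chac1 are other known targets of the same pathway.

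The study sequenced polyadenylated RNA of cultured cells whose plasma membrane was opened by a pore-forming protein or a detergent, in 59 libraries that form 30 groups. The 35 NIH3T3 libraries come from a mouse fibroblast line, the 16 LLC libraries from a mouse lung carcinoma line, and HT29 (colorectal carcinoma) and BxPC3 (pancreatic carcinoma) are human lines with 4 libraries each. Every group held 2 libraries except 1 group of 1 library. The labels do not say that the libraries of a group came from separate cultures, so p-values here reflect only how far these libraries spread, which may be technical.

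Parental NIH3T3 cells, without a construct, were left untreated or given the dimerizer AP20187 at 100 nM for 1 h. NIH3T3 cells with hMLKL1–181-2Fv, the amino-terminal part of human MLKL joined to dimerizer-binding domains, were left untreated or given the same AP20187 dose, in complete DMEM or in calcium-free DMEM. The same MLKL cells also came as pairs of untreated and AP20187 groups with control siRNA (siCTR), with siRNA labelled siPKC, as noko cells and as p65ko cells, named for the NF-kB subunit p65, all in complete DMEM. The siPKC group given AP20187 held 1 library. LLC cells with the MLKL construct were untreated or given AP20187 at 100 nM for 1 h. Parental LLC cells, and NIH3T3 and LLC cells with mGSDMD1-276-HBD, the pore-forming amino-terminal part of mouse gasdermin D joined to a hormone-binding domain, were untreated or given 4OHT (hydroxytamoxifen) at 50 nM for 2.5 h. NIH3T3 and LLC cells labelled as carrying no construct were untreated or given the detergent digitonin at 55 µg/mL for 3 h. HT29 and BxPC3 cells without a construct were untreated or given digitonin at 40 µg/mL for 2 h. The labels give neither the promoters of the constructs nor whether a construct line is 1 clone, and doses and times differ between routes.

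The 4 LLC libraries of the digitonin arm went against their labels. They held 326 to 337 TPM of Gsdmd (gasdermin D) and 31.3 to 33.0 TPM of Esr1 (estrogen receptor, the source of common hormone-binding domains), whereas the 4 parental LLC libraries of the 4OHT arm held 20.6 to 22.6 and 1.28 to 1.60 TPM, and the 4 LLC GSDMD libraries 336 to 377 and 21.2 to 22.5 TPM. Esr1 was chosen after its values were seen. All libraries of that arm share these levels, so no value without them can be given, and they are called cells labelled as carrying no construct. The other labels that could be checked held: the 4 NIH3T3 GSDMD libraries had 709.7 to 1230.3 TPM of Gsdmd against 5.44 to 15.0 TPM in the other 31 NIH3T3 libraries, Rela (p65) lay at 13.6 to 19.9 TPM in p65ko and 49.2 to 94.8 TPM in noko libraries, and Prkca (protein kinase C alpha) at 6.72 to 8.05 TPM with siPKC and 31.0 to 33.4 TPM with siCTR. Prkcd and Prkce were not lower with siPKC, at 38.6 to 40.2 and 4.74 to 5.25 TPM against 24.0 to 28.5 and 3.90 to 4.26 TPM. Fibroblast markers summed to 5862 to 8387 TPM in NIH3T3 libraries, with 10 of 10 at 1 TPM or more on average, and to 3060.0 to 4890.2 TPM in LLC libraries, with 6 of 10. Epithelial markers summed to 291 to 544 TPM in LLC, 13217 to 16394 TPM in HT29 and 6088 to 7846 TPM in BxPC3 libraries. Those at 1 TPM or more on average were 3 of the 9 present in LLC, 10 of 10 in HT29 and 8 of 10 in BxPC3.

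Promoters were searched for the core of the C/EBP-ATF response element, TGATGNAA, on both strands over the 250 bases before the RefSeq start. Of the 36 members, 23 had a RefSeq GRCm38.p6 promoter entry, and 5 of these held the motif (21.7%), against 1056 of 27025 gene symbols (3.91%). The holders were 2 of 9 synthesis enzymes, 3 of 9 synthetases and 0 of 5 transporters. Among other genes of the ATF4 pathway 7 of 21 held it (33.3%), and among mitochondrial synthetases 0 of 14. The 100 bases around the match are shown for Asns, Pycr1, Gars and Tars and for the cystine transporter gene Slc7a11, which had 2 matches, with the motif in capitals on the strand of the gene, 5′ to 3′. They lie at chr6:7693210-7693309 (Asns, minus strand), chr11:120643802-120643901 (Pycr1, minus), chr6:55037901-55038000 (Gars, plus), chr15:11399659-11399758 (Tars, minus) and chr3:50443614-50443713 (Slc7a11, minus). A match is a description of these letters and not evidence of binding.
Asns: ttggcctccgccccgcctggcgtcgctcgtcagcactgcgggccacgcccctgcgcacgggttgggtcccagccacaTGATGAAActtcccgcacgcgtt
Pycr1: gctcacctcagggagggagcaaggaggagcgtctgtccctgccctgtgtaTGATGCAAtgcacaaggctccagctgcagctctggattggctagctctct
Gars: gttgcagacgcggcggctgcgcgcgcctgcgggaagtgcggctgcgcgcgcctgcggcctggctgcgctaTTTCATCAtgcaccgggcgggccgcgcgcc
Tars: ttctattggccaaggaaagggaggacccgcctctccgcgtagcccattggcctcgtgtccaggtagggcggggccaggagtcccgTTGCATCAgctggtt
Slc7a11: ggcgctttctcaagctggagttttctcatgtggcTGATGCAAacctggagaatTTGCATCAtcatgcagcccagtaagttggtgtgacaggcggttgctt

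In Asns (asparagine synthetase) the motif lay 23 to 16 bases before the start and read along the gene, and in Pycr1 (the last enzyme of proline synthesis) 103 to 96 bases before it, also along the gene. In the synthetases Aars, Gars and Tars it read on the opposite strand, 112 to 105, 30 to 23 and 15 to 8 bases before the start. Among these 5, Asns, Aars, Gars and Tars rose in LLC GSDMD cells given 4OHT (log2 differences 1.38, 1.06, 0.72 and 1.12, limma, below), whereas Pycr1 was at 2.92 and 3.38 TPM untreated and 3.27 and 3.07 TPM treated and did not pass the test. In that arm 27 of 35 members tested rose, where 27.9% of all genes rose. All 8 transporters were among them, and the 5 transporters searched held no motif. In noko cells given AP20187 all 10 synthesis enzymes tested and all 17 synthetases were lower by the main test, where 55.5% of all genes fell. Fewer of both were lower after median centring (below), when 23.3% of all genes fell. No link between motif and response is read from these values.

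Untreated cells of every line already expressed most members. TPM is scaled to transcript length, so levels can be compared between genes. Over 18 untreated NIH3T3 libraries, the serine synthesis enzymes led: Psat1 (phosphoserine aminotransferase) had a median of 489 TPM (range 419.6 to 636) and Phgdh, which commits glycolytic carbon to serine, 398 TPM (342 to 558). Gars, Rars and Shmt2 (mitochondrial serine hydroxymethyltransferase) followed at 327, 313 and 312 TPM, with ranges of 275 to 406, 212 to 365 and 220.3 to 539 TPM that overlapped each other and that of Phgdh. The lowest were Pycr1 at 6.51, the cationic amino acid transporter Slc7a3 at 1.64 and Cbs (cystathionine beta-synthase) at 0.294 TPM. Psat1 and Phgdh also led in LLC cells, at medians of 606 and 526 TPM. The human lines were led by transporters: SLC1A5 (neutral amino acid exchange) at 369 TPM in HT29, and SLC7A5 (the light chain for large neutral amino acids) at 405 TPM with its heavy chain SLC3A2 at 301 TPM in BxPC3. Testing required 1 TPM or more in at least 2 libraries of a comparison, a level Cbs never reached, so at most 35 members were tested.

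Among the 15 comparisons of treated with untreated cells, GSDMD activation in LLC cells had the most members higher. Of 35 members tested, 27 rose and 6 fell with 4OHT in LLC GSDMD cells, and 16 rose at least 2-fold. Among all genes tested there, 27.9% rose and 54% fell, and the median log2 difference was 0.75 for the members and -0.25 for all genes. Here and below a difference is in log2(TPM + 1), treated minus untreated, and a gene rose or fell where its adjusted p (limma, Benjamini-Hochberg over all genes tested in the comparison) was under 0.05. Of the 33 calls, 31 were kept under every alternative, the others being Wars and Lars. In bulk RNA, fewer responding cells and less RNA per cell cannot be told apart.

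All 8 transporters rose in LLC GSDMD cells (median 1.54). Slc6a9, the glycine transporter, was at 7.81 and 8.99 TPM in the untreated and 68.4 and 68.0 TPM in the 4OHT libraries, a log2 difference of 2.88 (SE 0.0613, limma adjusted p = 2.74e-12). Slc7a1, which carries cationic amino acids, went from 48.7 and 46.4 to 216 and 213 TPM (2.15, SE 0.0442). Slc38a2, a sodium-coupled carrier of small neutral amino acids, went from 157 and 148 to 649 and 633 TPM (2.06, SE 0.0435). In these 3 genes both treated libraries lay far above both untreated ones, with libraries of a group close together. Slc7a3 rose from 1.68 and 1.55 to 9.34 and 7.40 TPM (1.83), and Slc3a2, the shared heavy chain, from 177 and 178 to 412 and 412 TPM (1.21). The neutral carriers Slc1a4 and Slc1a5 and the light chain Slc7a5 rose by 1.24, 0.60 and 1.04.

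Of 10 synthesis enzymes tested, 9 rose in LLC GSDMD cells (median 0.75). Cth, which releases cysteine from cystathionine, went from 7.60 and 8.94 to 27.7 and 27.0 TPM (1.62, SE 0.0921). Mthfd2, a mitochondrial enzyme of the folate cycle, went from 172 and 166 to 462 and 468 TPM (1.45, SE 0.0403), and Asns from 245 and 242 to 641 and 626 TPM (1.38, SE 0.0364, limma adjusted p = 1.42e-11). Groups did not overlap in any of these. The 3 enzymes of serine synthesis rose by unequal amounts: the last one, Psph, by 1.31, Psat1 by 0.75 and the first, Phgdh, by 0.30. Aldh1l2, which oxidizes formyltetrahydrofolate in mitochondria, rose by 0.76, Aldh18a1, the first enzyme of proline synthesis, by 0.70 and Shmt2 by 0.38. The exception was Pycr1.

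The synthetases split in LLC GSDMD cells: of 17, 10 rose and 6 fell (median 0.19). Cars rose from 82.0 and 85.0 to 195 and 191 TPM (1.20), Nars from 395 and 389.5 to 884 and 857 TPM (1.15) and Tars from 178 and 178 to 387 and 389 TPM (1.12). Sars and Aars rose by 1.09 and 1.06, Gars, Yars and Iars by 0.72, 0.63 and 0.60, and Rars by 0.14. In the other direction, Dars, which loads aspartate, went from 181 and 169.7 to 94.4 and 91.1 TPM and fell by 0.91 (SE 0.0529, limma adjusted p = 8.72e-09). Vars fell by 0.50, Hars by 0.44, Mars by 0.36 and Kars by 0.32, the last from 368 and 361 to 293 and 292 TPM. Eprs, at 0.04, did not pass. Wars passed as higher (0.19) but not when the second untreated or the second 4OHT library was left out, and Lars passed as lower (-0.19) but not after median centring. The 17 mitochondrial synthetases listed for comparison, none of them a member, had 3 higher and 13 lower (median -0.71).

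Other genes of the ATF4 pathway rose with the members in the LLC GSDMD libraries: 21 of 22 rose, with a median of 2.14, and Mthfd1l was lower (not after scaling). Chac1 went from 4.98 and 3.82 to 424 and 437 TPM (6.33), Trib3 from 10.2 and 9.04 to 158 and 166 TPM (3.94) and Ddit3 from 7.81 and 7.89 to 48.3 and 50.9 TPM (2.52). Slc7a11, the carrier shown above with 2 motif matches, went from 1.86 and 1.71 to 26.5 and 24.3 TPM (3.24). The Atf4 transcript itself went from 481 and 479 to 1576 and 1552 TPM (1.70). Of 8 other amino acid transporters tested, 5 rose and 1 fell (median 0.46). Of 6 genes for eIF2 alpha, its kinases and a phosphatase subunit, 2 rose and 3 fell, and of 6 other cytosolic synthetase subunits 2 rose and 4 fell.

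Parental LLC cells given 4OHT showed 0 members higher and 0 lower by limma, where 0.819% of all genes rose and 0.045% fell, and 5 of 35 members were higher and 1 lower at an unadjusted p under 0.05 (at that level 9.52% and 1.92% of all genes). Slc38a2 was at 153 and 162 TPM untreated and 162 and 167 TPM with 4OHT, and Asns at 208 and 213 and 204 and 212 TPM, with the Asns ranges overlapping. In a test of the difference between the 4OHT responses of GSDMD and parental LLC cells, 26 members were higher and 6 lower (22.4% and 49.4% of all genes), and 30 of these 32 calls were kept under every alternative. The largest differences were in Slc6a9 (2.84, SE 0.0864), Slc7a1 (2.03), Slc38a2 (2.00) and Slc7a3 (1.91) upward and in Dars (-0.88), Vars (-0.60) and Hars (-0.45) downward.

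**Figure D1:**
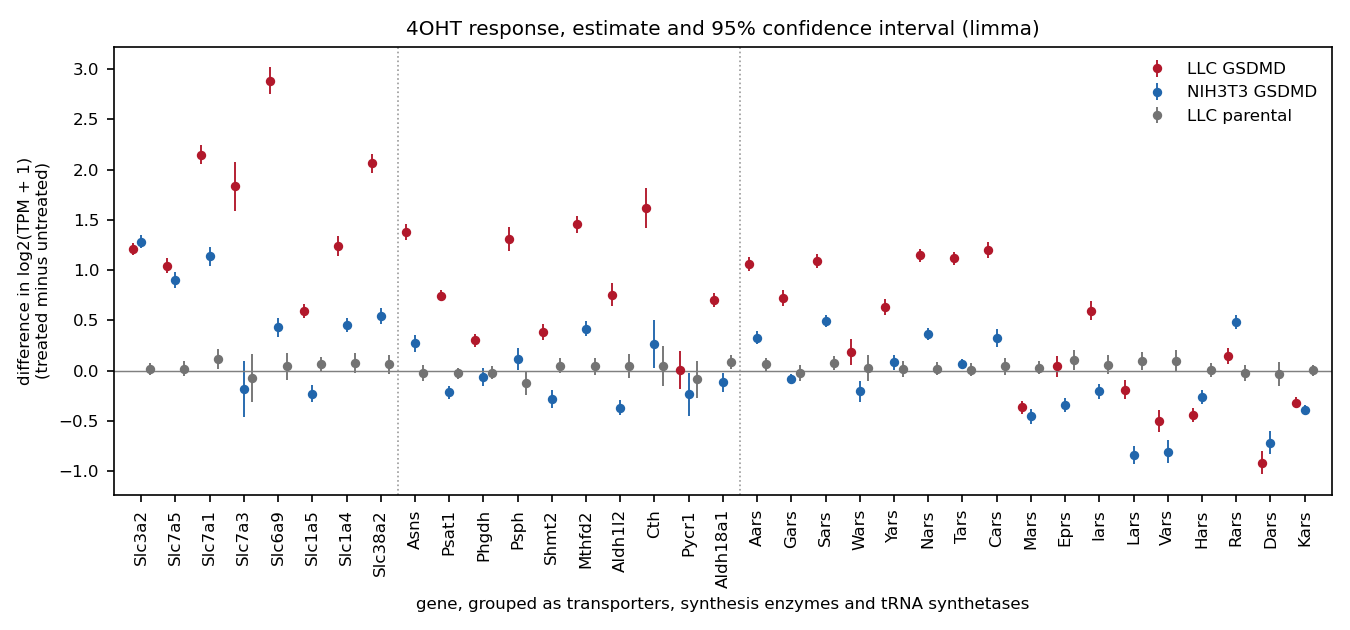
Difference in log2(TPM + 1), treated minus untreated, for the 35 tested members on the x axis, with points for the limma estimate and bars for its 95% confidence interval, in LLC GSDMD, NIH3T3 GSDMD and parental LLC cells given 4OHT. LLC GSDMD points run from -0.91 (Dars) to 2.88 (Slc6a9), while parental LLC points stay near 0.

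In NIH3T3 GSDMD cells the same treatment gave a smaller and more divided response: 16 of 35 members rose and 16 fell, where 20% of all genes rose and 58.6% fell. The median was -0.06 for members and -0.29 for all genes, and after each library was centred on its median 20 members rose and 6 fell (34.7% and 37% of all genes). Of the 32 calls, 19 were kept under every alternative, and the members named here with a direction are among them. No library came from parental NIH3T3 cells given 4OHT, so the response to 4OHT alone was not measured in this line. Transporters rose in 6 of 8 cases: Slc3a2 went from 166 and 163 to 393 and 412 TPM (1.28, SE 0.0332, limma adjusted p = 1.57e-18), Slc7a1 from 42.0 and 38.3 to 86.8 and 91.9 TPM (1.14) and Slc7a5 by 0.90. Slc38a2 rose from 179.9 and 168 to 258 and 249 TPM (0.54), and Slc1a4 and Slc6a9 by 0.45 and 0.43.

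Among synthesis enzymes of NIH3T3 GSDMD cells, 3 rose and 5 fell (6 and 1 after median centring). Mthfd2 rose by 0.42 and Asns from 303 and 281 to 355 and 349 TPM (0.27), while Aldh1l2 fell by 0.37. Of the 17 synthetases 7 rose and 10 fell (8 and 5 after centring). Among all genes 20% rose and 58.6% fell (34.7% and 37% after centring), so the shares of both roles that fell by the main test are near that of all genes. Sars, Rars and Nars rose by 0.50, 0.48 and 0.36, and Aars and Cars by 0.33 and 0.33. Lars fell by 0.83, Vars by 0.80, Dars by 0.71, Mars by 0.45 and Kars by 0.39, Dars from 78.3 and 80.3 to 50.3 and 45.7 TPM. Of 19 other ATF4 pathway genes, 15 rose and 1 fell (median 0.97). Chac1 went from 12.6 and 10.7 to 341 and 358 TPM (4.80) and Atf4 from 651 and 655 to 1287 and 1281 TPM (0.97).

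The 4OHT response of GSDMD cells differed between the lines for 32 members, 29 more positive and 3 more negative in LLC (33.5% and 27% of all genes), and 29 of the 32 were kept under every alternative. Slc6a9 differed most (2.45, SE 0.0709), followed by Slc7a3 (2.02), Slc38a2 (1.52), Cth (1.35), Psph (1.19) and Aldh1l2 (1.12). Asns and Tars differed by 1.11 and 1.05. Rars went the other way (-0.34). Chac1 and Trib3 were also more positive in LLC (1.53 and 1.66), while Ddit3 was more negative (-0.61). Construct levels differed as well, with Gsdmd at 709.7 to 1230.3 TPM in NIH3T3 and 336 to 377 TPM in LLC libraries, and their part in the difference was not tested.

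In NIH3T3 MLKL cells the transporters rose most often among the roles. Given AP20187 for 1 h in complete medium, 10 of 35 members rose and 1 fell, where 15.8% of all genes rose and 16.5% fell. With only the libraries of this comparison 5 rose and 0 fell. Transporters rose in 5 of 8 cases (median 0.25), synthesis enzymes in 2 of 10 and synthetases in 3 of 17. Slc3a2 went from 144 and 149.7 to 229 and 242 TPM (0.68, SE 0.0334, limma adjusted p = 5.57e-13), Slc38a2 from 270.2 and 278 to 364 and 359.7 TPM (0.40) and Slc7a1 from 43.8 and 45.7 to 58.6 and 61.9 TPM (0.42). Slc1a5 rose by 0.27 and, among enzymes, Mthfd2 from 129 and 129 to 165 and 164 TPM (0.34). These 5 were the calls kept under every alternative. Both treated libraries lay above both untreated ones in each. Asns was at 248 and 249 TPM untreated and 261 and 263 TPM treated (0.07, limma adjusted p = 0.156). Synthetase counts depended on scaling: 3 rose and 1 fell, and after quantile normalization 1 rose and 4 fell. Over all members the split was 7 and 4 after quantile normalization (15.6% and 21.9% of all genes).

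Of the other ATF4 pathway genes, 9 of 18 rose and 1 fell in these NIH3T3 MLKL cells. Chac1 went from 10.2 and 11.1 to 101 and 112 TPM (3.20), Ddit3 from 33.9 and 30.7 to 75.5 and 74.7 TPM (1.19), Atf4 from 617 and 622 to 1048 and 1036 TPM (0.75) and Sesn2, a stress-induced inhibitor of mTORC1 signaling, rose by 0.68. In parental NIH3T3 cells AP20187 changed 0 members by limma, where 0.0174% of all genes rose and 0.287% fell, and 0 at an unadjusted p under 0.05 (at that level 1.27% and 5.02% of all genes). The AP20187 response of MLKL cells exceeded that of parental cells for 8 members and was below it for 0 (12.4% and 8.1% of all genes), with 5 kept under every alternative: Slc3a2 (0.62), Slc7a1 (0.47), Slc38a2 (0.44), Mthfd2 (0.35) and Slc1a5 (0.30). The split was 6 and 2 after quantile normalization (11.1% and 13.5% of all genes), 7 and 1 after median centring (11.1% and 11.7%), and 5 and 0 with only the libraries of the comparison.

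In calcium-free medium the rise was not seen. AP20187 raised 0 members and lowered 1 by limma (2.27% and 3.42% of all genes), and the members' shares of 35 are near these. The count lower was 5 after quantile normalization, 3 after median centring, 3 without a filter, 2 with a replicate block and 0 with only the libraries of this comparison. At an unadjusted p under 0.05, 0 members were higher and 11 lower (9.79% and 9.37% of all genes). The 1 was Slc38a2, at 316 and 303 TPM untreated and 262 and 258 TPM treated (-0.25), and with only the libraries of this comparison it did not pass (adjusted p = 0.0517). Slc3a2 was at 198 and 212 TPM untreated and 192 and 198 TPM treated and did not pass after adjustment (-0.07, 95% confidence interval -0.14 to -0.0048). In the test of the difference between media, 11 members had a lower response without calcium and 0 a higher one (11.1% and 10.8% of all genes), and 7 were kept under every alternative and were the only ones lower with only the libraries of the comparison. They were Slc3a2 (-0.75, SE 0.0471), Slc38a2 (-0.65), Mthfd2 (-0.45), Slc7a1 (-0.41), Eprs (-0.26), Slc1a5 (-0.23) and Gars (-0.15). Atf4 and Chac1 had differences of -0.68 and -2.95.

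The untreated cells differed between media too. Without calcium, 10 members were higher and 7 lower than in complete medium (8.55% and 27.7% of all genes), and after median centring 23 were higher and 2 lower (21.1% and 16.2% of all genes). The count of 10 fell to 5 without the first untreated library in complete medium and to 6 without the second in calcium-free medium. Slc3a2 was at 198 and 212 TPM in calcium-free and 144 and 149.7 TPM in complete medium (0.48), and Slc1a5, Aldh1l2, Slc38a2 and Mthfd2 were higher by 0.20, 0.18, 0.17 and 0.16. Rars was lower, at 251 and 234 against 322 and 332 TPM (-0.43), as was Iars (-0.19). All 7 were kept under every alternative. The calcium-free untreated level of Slc3a2 thus lay between the untreated and the AP20187 levels in complete medium.

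In siCTR cells Slc38a2 went from 172 and 165 to 286 and 279.7 TPM with AP20187 (0.74, SE 0.0366, limma adjusted p = 2.25e-13). Of 34 members tested, 5 rose and 19 fell, where 13.7% of all genes rose and 51.8% fell and the all-gene median was -0.19. The members' shares are near those of all genes. After median centring 12 rose and 8 fell (28% and 27.1% of all genes). Slc3a2, Slc7a1, Slc1a5 and Mthfd2 rose by 0.49, 0.33, 0.24 and 0.23. Slc1a4 fell by 0.57, Aldh18a1 by 0.51, Wars by 0.37 and Mars by 0.28. Asns went from 205 and 189 to 183 and 171 TPM and was lower (-0.15), but after median centring it was higher by 0.032 and did not pass. Of 18 other ATF4 pathway genes, 8 rose and 4 fell.

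With siPKC, 4 of 34 members rose and 19 fell (10.5% and 37.5% of all genes). After centring 9 rose and 8 fell (19.2% and 19.9% of all genes), and with only the libraries of this comparison 3 rose and 10 fell. The spread of the 1 treated library was taken from the other groups. Slc38a2 was at 167 and 179.8 TPM in the untreated libraries and 263 TPM in the 1 treated library (0.60), and Slc3a2 and Slc7a1 rose by 0.45 and 0.34. Of 18 other ATF4 pathway genes, 8 rose and 3 fell. The AP20187 response differed between siPKC and siCTR for 2 of 34 members, higher with siPKC, where 4.96% of all genes were higher and 3.33% lower, so the members' share is near that of all genes. They were Slc1a4 (0.29) and Aldh1l2 (0.22), neither kept under every alternative. The count was 4 without the second untreated siCTR library and 1 without the first untreated siPKC library, after centring 1 was higher and 5 lower (2.53% and 6.88% of all genes), and with only the libraries of the comparison 0 were higher. For Slc38a2 the difference was -0.15 (95% confidence interval -0.27 to -0.03, limma adjusted p = 0.120), which did not pass after adjustment.

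Slc38a2 rose in both noko and p65ko cells, while 21 other members responded differently. In noko cells Slc38a2 went from 245 and 247 to 431 and 435 TPM (0.81, SE 0.0365), Slc3a2 rose by 0.19, and 31 of 35 members fell. Of all genes 10.6% rose and 55.5% fell, with a median of -0.22 against -0.27 for the members, and after centring 7 members rose and 11 fell (27.6% and 23.3% of all genes). All 10 synthesis enzymes and all 17 synthetases were lower (3 and 6 after centring, when 4 synthetases were higher). Aldh18a1 went from 113 and 115 to 75.3 and 74.9 TPM (-0.60), Aldh1l2 fell by 0.57, Slc1a4 by 0.53 and Psph by 0.51. Of 18 other ATF4 pathway genes 6 rose and 9 fell (8 and 4 after centring).

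In p65ko cells Slc38a2 went from 206 and 207 to 332 and 341 TPM (0.70), and 7 members rose and 14 fell (8.99% and 50.4% of all genes). After median centring 23 rose and 0 fell (24.5% and 18.9% of all genes), so a direction for the whole list depends on the scaling. Slc3a2 rose by 0.30, Mthfd2 by 0.23, Slc7a1 by 0.18, Slc1a5 by 0.17 and Sars by 0.10, which with Slc38a2 were the 6 calls kept under every alternative. Asns was at 308 and 310.4 TPM untreated and 316 and 317 TPM treated.

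The test of the difference between those responses depended less on scaling. The AP20187 response was more positive in p65ko than in noko cells for 21 of 35 members and more negative for 0, where 2.34% of all genes were more positive and 1.76% more negative. The counts were 20 and 0 after centring (1.86% and 2.6% of all genes) and 14 to 17 and 0 when 1 library was left out, and 14 members were kept under every alternative. The median difference was 0.21 for the members and 0.03 for all genes. Untreated cells already differed in the members' levels. Summed over the members, untreated libraries held 6375 and 6366 TPM in noko and 5749 and 5753 TPM in p65ko. With AP20187 the sums were 5648 and 5631 TPM in noko and 5772 and 5798 TPM in p65ko libraries. The part of the untreated levels in the difference of responses was not tested. By role, 5 of 8 transporters, 6 of 10 synthesis enzymes and 10 of 17 synthetases were more positive. Aldh1l2 differed most (0.53, SE 0.0477, limma adjusted p = 3.13e-07), with 57.2 and 56.8 TPM untreated and 38.7 and 37.4 TPM treated in noko libraries. In p65ko it was at 46.1 and 45.1 TPM untreated and 43.8 and 44.9 TPM treated. Groups of noko did not overlap, while those of p65ko lay close together. Psph (0.50), Slc1a4 (0.43), Mthfd2 (0.41), Slc7a1 (0.38) and Aldh18a1 (0.36) followed. Nars, Sars, Aars, Gars and Tars differed by 0.24, 0.23, 0.22, 0.20 and 0.20.

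Slc38a2 was not among those members: its difference of -0.11 (95% confidence interval -0.22 to -0.01) did not pass after adjustment (limma adjusted p = 0.296). Of the 17 mitochondrial synthetases 0 differed by limma between p65ko and noko, with 1 higher and 0 lower at an unadjusted p under 0.05 (9.6% and 5.63% of all genes). Among other ATF4 pathway genes 9 of 20 were more positive and 1 more negative, Trib3 by 0.64, Chac1 by 0.57 and Atf4 by 0.22. Untreated noko libraries held 58.7 and 61.0 TPM and untreated p65ko libraries 77.3 and 75.0 TPM of Chac1, against 10.2 and 11.1 TPM in the untreated MLKL cells of the first arm.

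**Figure D2:**
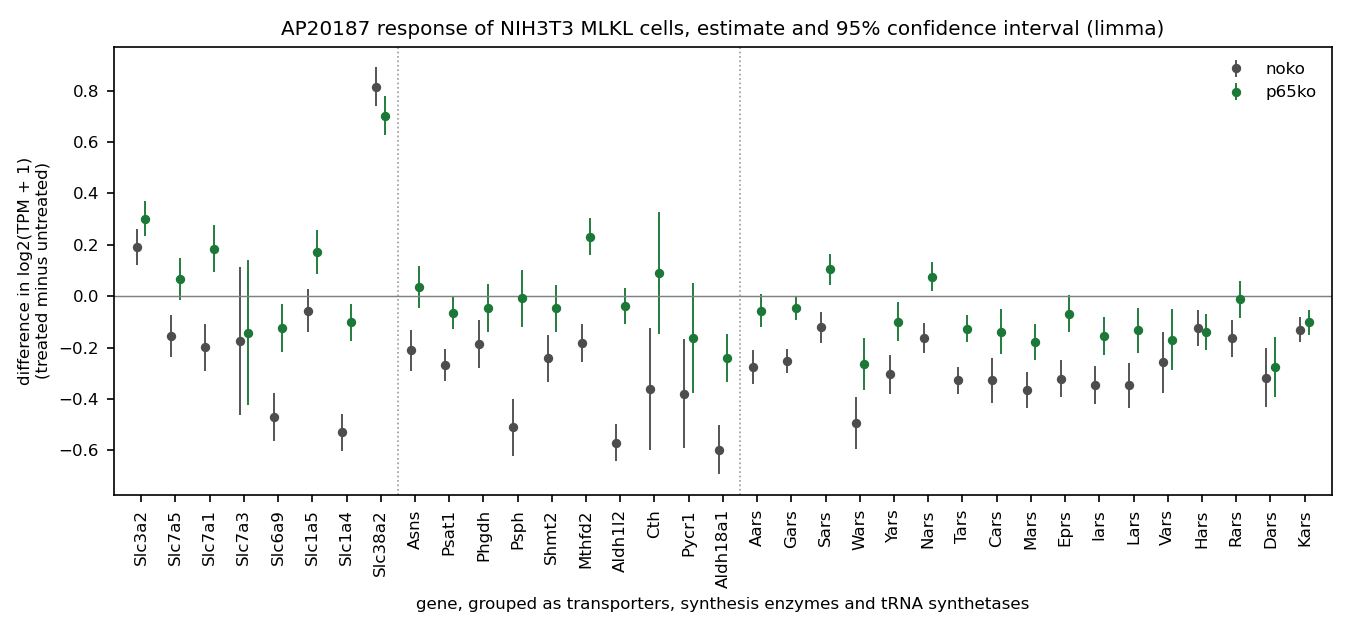
Difference in log2(TPM + 1), AP20187 minus untreated, for the 35 tested members on the x axis in NIH3T3 MLKL noko and p65ko cells, with points for the limma estimate and bars for its 95% confidence interval. Slc38a2 stands highest in both, at 0.81 and 0.70, and Aldh1l2 lies at -0.57 in noko and -0.04 in p65ko cells.

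In LLC cells with the MLKL construct 2 members were higher and 2 lower with AP20187 (5.48% and 2.08% of all genes), and none of these calls was kept under every alternative. They were Mthfd2 (0.19) and Slc7a1 (0.16) upward and Psph (-0.24) and Aldh1l2 (-0.20) downward. Slc38a2 was at 154 and 157 TPM untreated and 176 and 167 TPM treated (0.14, limma adjusted p = 0.0700), and Slc3a2 at 178 and 177 TPM untreated and 172 and 169 TPM treated (-0.06). The Atf4 transcript, at 598 and 601 TPM untreated and 631 and 636 TPM treated, did not pass. The counts were 0 to 1 each when 1 library was left out, whichever library it was, and 1 and 0 with only the libraries of this comparison. The AP20187 response was more negative in LLC than in NIH3T3 MLKL cells for 11 members and more positive for 0 (7.05% and 5.87% of all genes). The 11 fell to 7 without either untreated NIH3T3 MLKL library, the second treated one or the first untreated LLC MLKL library, and to 3 with only the libraries of the comparison. Slc3a2 (-0.74), Aldh1l2 (-0.29) and Slc38a2 (-0.26) were kept under every alternative. Levels of the human MLKL construct were not analysed here.

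Digitonin raised transporters in both mouse lines. In NIH3T3 cells 17 of 35 members rose and 5 fell (39.3% and 34.2% of all genes), but with libraries centred on their median 12 rose and 15 fell (31.3% and 46.3% of all genes), and with quantile normalization 12 and 13 (33.2% and 43.3%). With only the libraries of this comparison 3 fell. These scalings moved the all-gene median from 0.02 to -0.13 and -0.09. Transporters were higher in 6 of 8 cases and lower in 0 (5 and 2 after either scaling), and synthetases in 6 with 4 lower (4 and 10 after centring). Slc38a2 went from 130.1 and 133 to 474 and 472 TPM (1.84, SE 0.0366, limma adjusted p = 1.50e-20), and Slc7a1 from 28.0 and 29.0 to 70.9 and 69.9 TPM (1.28). Slc3a2, Slc7a5 and Slc1a5 rose by 0.86, 0.79 and 0.39, and the enzymes Mthfd2, Aldh1l2 and Asns by 0.66, 0.60 and 0.25. Nars went from 196 and 198 to 317 and 318 TPM (0.69) and Iars rose by 0.50, whereas Vars, Mars and Kars fell by 0.28, 0.27 and 0.16. These members were kept under every alternative. Atf4 went from 788 and 791 to 1858 and 1871 TPM (1.24), and 13 of 19 other ATF4 pathway genes rose and 2 fell.

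In LLC cells labelled as carrying no construct, digitonin raised 16 of 35 members and lowered 7 (20.3% and 32.2% of all genes), and the 7 became 4 without the first untreated or the first digitonin library and with only the libraries of this comparison. Transporters rose in 7 of 8 cases under every scaling. Slc38a2 went from 184 and 172 to 309 and 320.4 TPM (0.82, SE 0.0435), Slc3a2 rose by 0.74, Slc7a1 by 0.68 and Slc7a3 by 0.58. Asns went from 387 and 359 to 432 and 427 TPM (0.21), Mthfd2 rose by 0.42 and Nars by 0.24, while Dars, Mars and Hars fell by 0.31, 0.26 and 0.26. Atf4 went from 685 and 643 to 1256 and 1225 TPM (0.90), and 16 of 21 other ATF4 pathway genes rose and 2 fell. Gsdmd and Esr1 were at the levels given above in all 4 of these libraries, and their part in the response was not tested.

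The digitonin response of the lines differed for 19 members, 6 more positive and 13 more negative in LLC (19.4% and 36% of all genes). Gsdmd was at 326 to 337 TPM in the LLC and 10.7 to 13.9 TPM in the NIH3T3 libraries compared, so line and these levels cannot be told apart. The members' shares are near those of all genes, and after centring the split was 13 and 8 (30.2% and 28.4% of all genes). Slc38a2 had a difference of -1.02, Aldh1l2 of -0.79 and Slc7a1 of -0.59, and Slc7a3 and Slc1a4 were more positive in LLC, by 0.77 and 0.30. These were kept under every alternative.

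Human cells given digitonin joined a large rise of SLC38A2 to lower synthetases by the main test, a result that in HT29 depended on scaling (below). In HT29 cells SLC38A2 went from 41.4 and 42.8 to 282 and 276 TPM (2.70, SE 0.0388, limma adjusted p = 3.93e-08), and in BxPC3 cells from 87.2 and 85.6 to 777 and 824 TPM (3.20, SE 0.0380, limma adjusted p = 1.06e-08). It was the member with the largest rise in each line, and its groups stood far apart. In HT29 cells 4 of 32 members rose and 20 fell (16.5% and 44% of all genes; 8 and 10 after centring, with 27.6% and 28.9%), and in BxPC3 cells 6 of 33 rose and 26 fell (23.7% and 56.9%; 10 and 21 after centring, with 41.3% and 36.9%). The BxPC3 count of 6 fell to 3 without the second digitonin library or either untreated one. Summed over the 8 transporters, BxPC3 libraries held 1041 and 1039.7 TPM untreated and 1411 and 1472 TPM with digitonin. That sum holds SLC38A2 and does not show a rise of the whole role, since SLC7A5, SLC1A5 and SLC7A1 fell. At an unadjusted p under 0.05 (limma), 3 of 7 transporters tested were higher and 3 lower (24.1% and 57.4% of all genes). The 17 synthetases summed to 1839 and 1830.1 TPM untreated and 988 and 1020.4 TPM with digitonin in BxPC3. In HT29 the synthetase sum was 2119 and 2148 TPM untreated and 1826 and 1820.0 TPM treated.

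Marker levels moved in BxPC3 cells as well. Fibroblast markers, of which 7 of 10 were in the human table, summed to 15.8 and 16.0 TPM untreated and 146 and 143 TPM with digitonin. Most of the sum was VIM (vimentin, a cytoskeletal filament protein), at 13.4 and 13.4 TPM untreated and 137 and 134 TPM with digitonin, and COL1A1 (a collagen chain) was at 1.65 and 1.82 TPM untreated and 8.29 and 9.09 TPM with digitonin. COL1A2 and PDGFRB were at 0 in all 4 BxPC3 libraries, and COL3A1, PDGFRA and THY1 stayed at 0.362 TPM or less. Epithelial markers summed to 6088 and 6361 TPM untreated and 7541 and 7846 TPM with digitonin. KRT7 (a keratin) went against this sum, from 1561 and 1635 TPM untreated to 988 and 1004 TPM with digitonin. At an unadjusted p under 0.05 (limma), 5 of 8 epithelial markers tested were higher and 1 lower (24.1% and 57.4% of all genes). In HT29 libraries fibroblast markers summed to 0.733 to 1.02 TPM. The part of these markers in the BxPC3 result was not tested.

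Of the transporters other than SLC38A2, SLC3A2 rose in HT29 (0.38) and was at 301 and 302 TPM untreated and 291 and 300.1 TPM treated in BxPC3, where its partner SLC7A5 went from 406 and 404 to 199 and 203 TPM (-1.01). SLC1A5 and SLC7A1 fell by 0.88 and 0.72 in BxPC3. CTH rose in both lines, from 1.58 and 1.61 to 3.94 and 3.68 TPM in HT29 (0.89) and by 0.69 in BxPC3. ALDH18A1 fell in both, by 0.45 and 1.37. ASNS was at 45.3 and 39.6 TPM untreated and 36.3 and 34.9 TPM treated in BxPC3, lower by the main test (-0.25) and higher, at 0.18, after median centring.

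The synthetases fell in 14 of 17 cases in HT29, where 44% of all genes fell, and in 17 of 17 in BxPC3, where 56.9% of all genes fell. After median centring 7 fell and 2 rose in HT29 (28.9% and 27.6% of all genes fell and rose), and 16 fell and 1 rose in BxPC3 (36.9% and 41.3%). RARS went from 115 and 113 to 33.4 and 35.2 TPM in BxPC3 (-1.70, SE 0.0451) and fell by 0.66 in HT29. HARS fell by 1.27 and 0.45, and NARS, MARS and SARS fell in BxPC3 by 1.26, 1.26 and 1.02. In a test of the difference between the lines 24 members were more negative and 3 more positive in BxPC3 (43.5% and 20.6% of all genes; 16 and 7 after centring, with 29.3% and 30.4%). MARS (-1.13), RARS (-1.04), NARS (-1.03), ALDH18A1 (-0.91) and SARS (-0.90) differed most, and SLC38A2 was more positive in BxPC3 by 0.49. ATF4 went from 466 and 462 to 973 and 969.8 TPM in HT29 (1.07) and from 208 and 214 to 953 and 993 TPM in BxPC3 (2.20). Of the other ATF4 pathway genes 9 of 19 rose and 3 fell in HT29, and 13 of 18 rose and 5 fell in BxPC3 (median 1.87). Doses and times differ from those of the mouse arms, and no test was made between human and mouse cells.

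**Figure D3:**
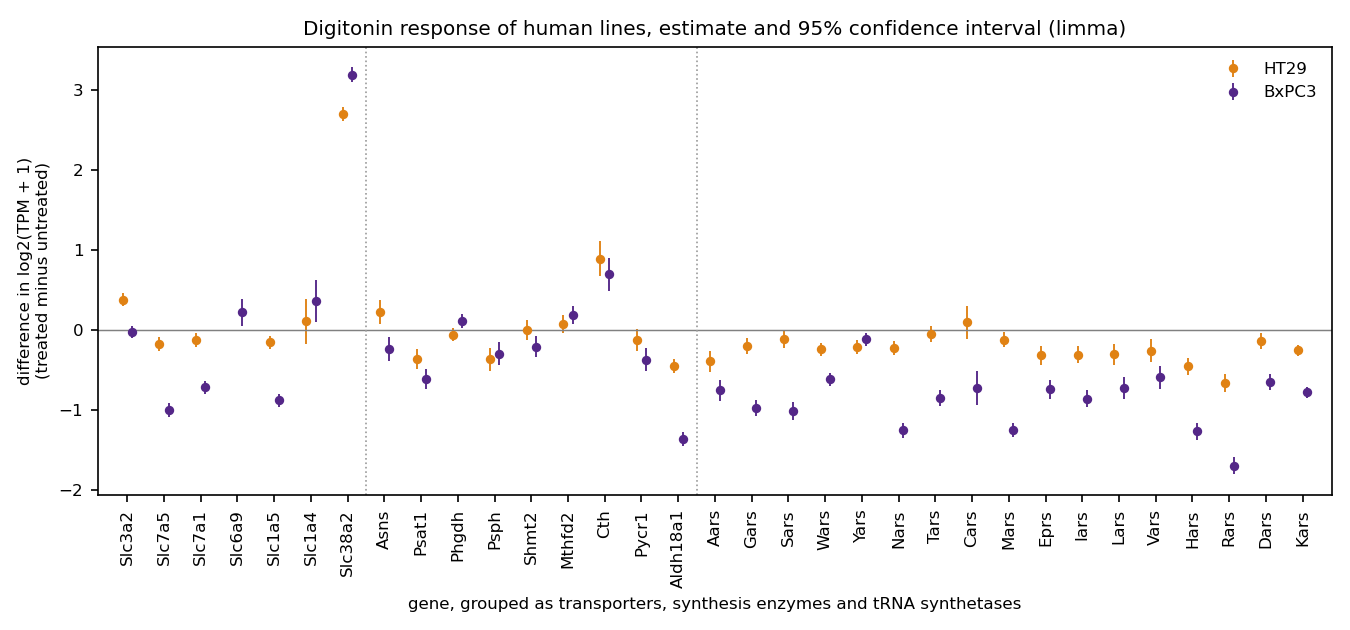
Difference in log2(TPM + 1), digitonin minus untreated, for the members tested in HT29 and BxPC3 cells on the x axis (human genes drawn under mouse spelling), with points for the limma estimate and bars for its 95% confidence interval. SLC38A2 stands at 2.70 and 3.20, and in BxPC3 all 17 synthetases lie below 0.

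Across the 12 treatments that opened the membrane in medium with calcium, 5 of which used the same NIH3T3 MLKL construct, members differed in how often they passed. Doses, times and species differ between these treatments, so the counts are set side by side and not tested. The share of all genes that rose ran from 5.48% to 39.3% and the share that fell from 2.08% (LLC MLKL) to 58.6% (NIH3T3 GSDMD), and was 32.2% or more in every treatment but LLC MLKL and NIH3T3 MLKL. Slc38a2 (ENSMUSG00000022462.7, mm10 chr15:96687392-96699730, minus strand, GENCODE vM21) rose in 11 and fell in 0, with all 11 calls kept under every alternative and log2 differences from 0.14 (LLC MLKL, not passed) to 2.06 in mouse cells, and of 2.70 and 3.20 in human cells. Slc3a2 (ENSMUSG00000010095.13, chr19:8706882-8723369, minus strand) rose in 10 and fell in 0, all kept. Mthfd2 rose in 10 and fell in 1 (7 and 0 kept), and Slc7a1 rose in 9 and fell in 3 (8 and 1 kept). Asns rose in 5 and fell in 3 (4 and 0 kept). Among synthetases, Mars and Kars rose in 0 and fell in 10 each (8 and 6 kept), and Lars, Dars, Vars and Hars also rose in 0, falling in 9, 9, 8 and 8 (4, 4, 5 and 4 kept). Nars rose in 6 and fell in 3 (4 and 1 kept). Pycr1 rose in 0 and fell in 3 (0 kept). Falls in most treatments are thus also common among all genes, and nothing particular to these synthetases is read from their counts.

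**Figure D4:**
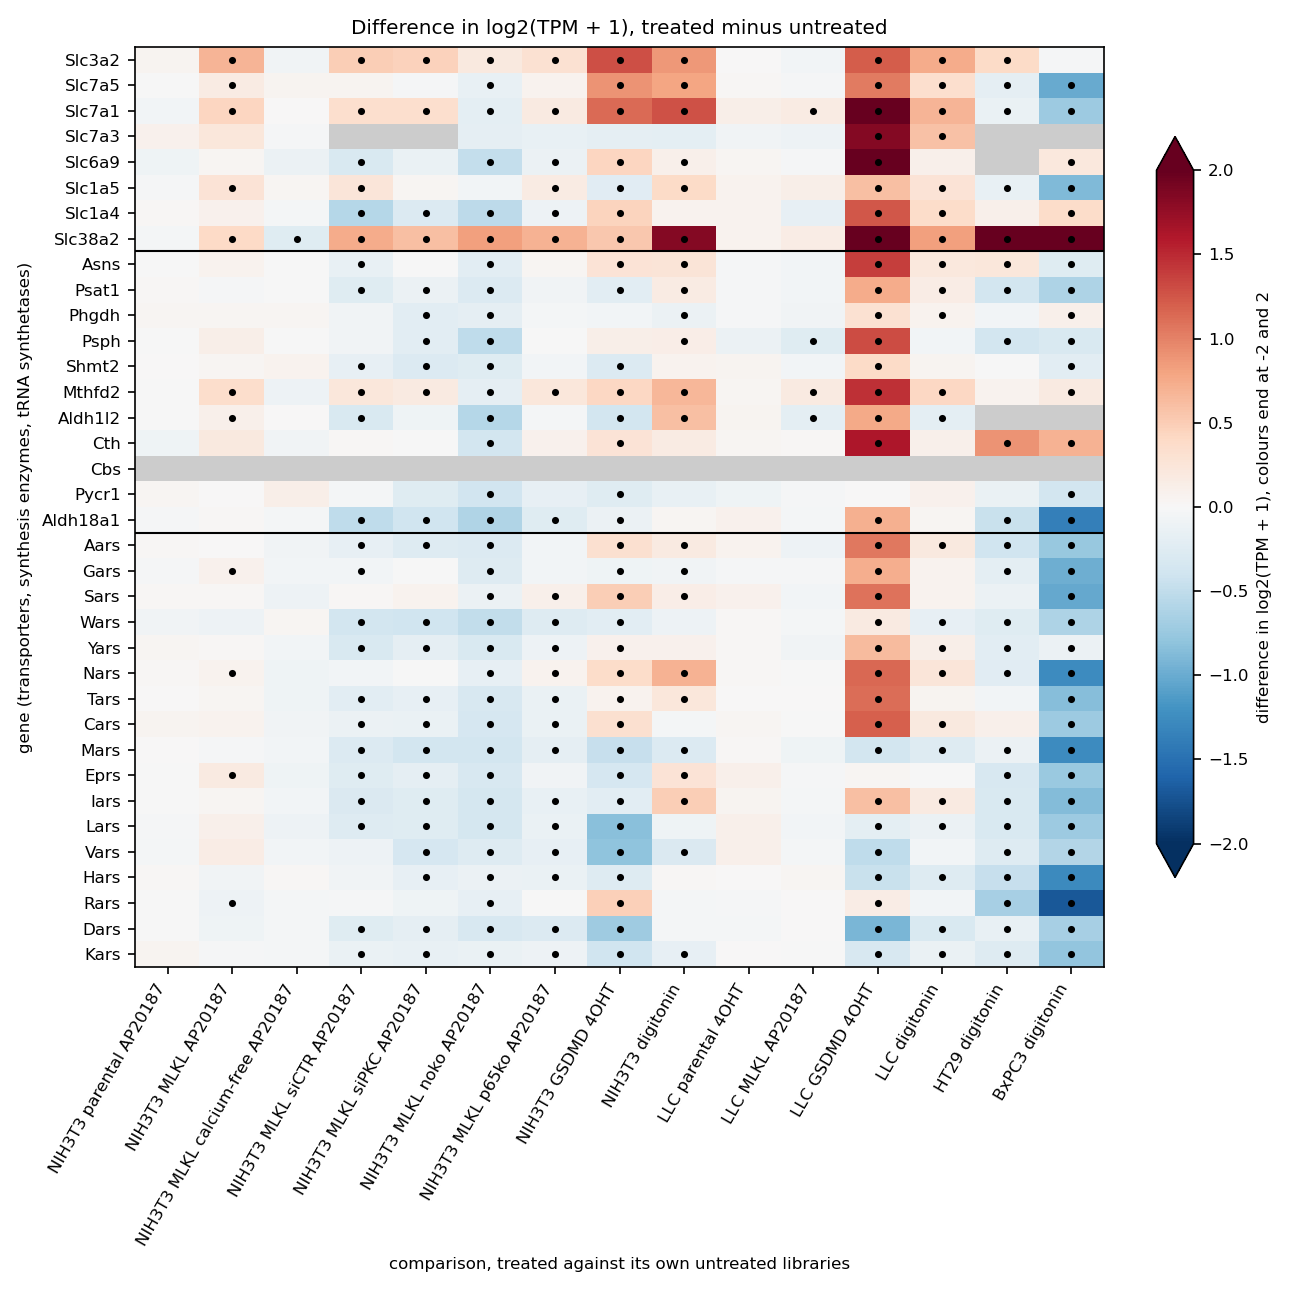
Colour shows the difference in log2(TPM + 1), treated minus untreated, for each member (rows, grouped by role) in each of the 15 comparisons (columns), with colours ending at -2 and 2, dots for an adjusted p under 0.05 and grey for a gene not tested. Slc38a2 carries a dot for a rise in 11 columns, and the LLC GSDMD column holds 27 rises.

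**Figure D5:**
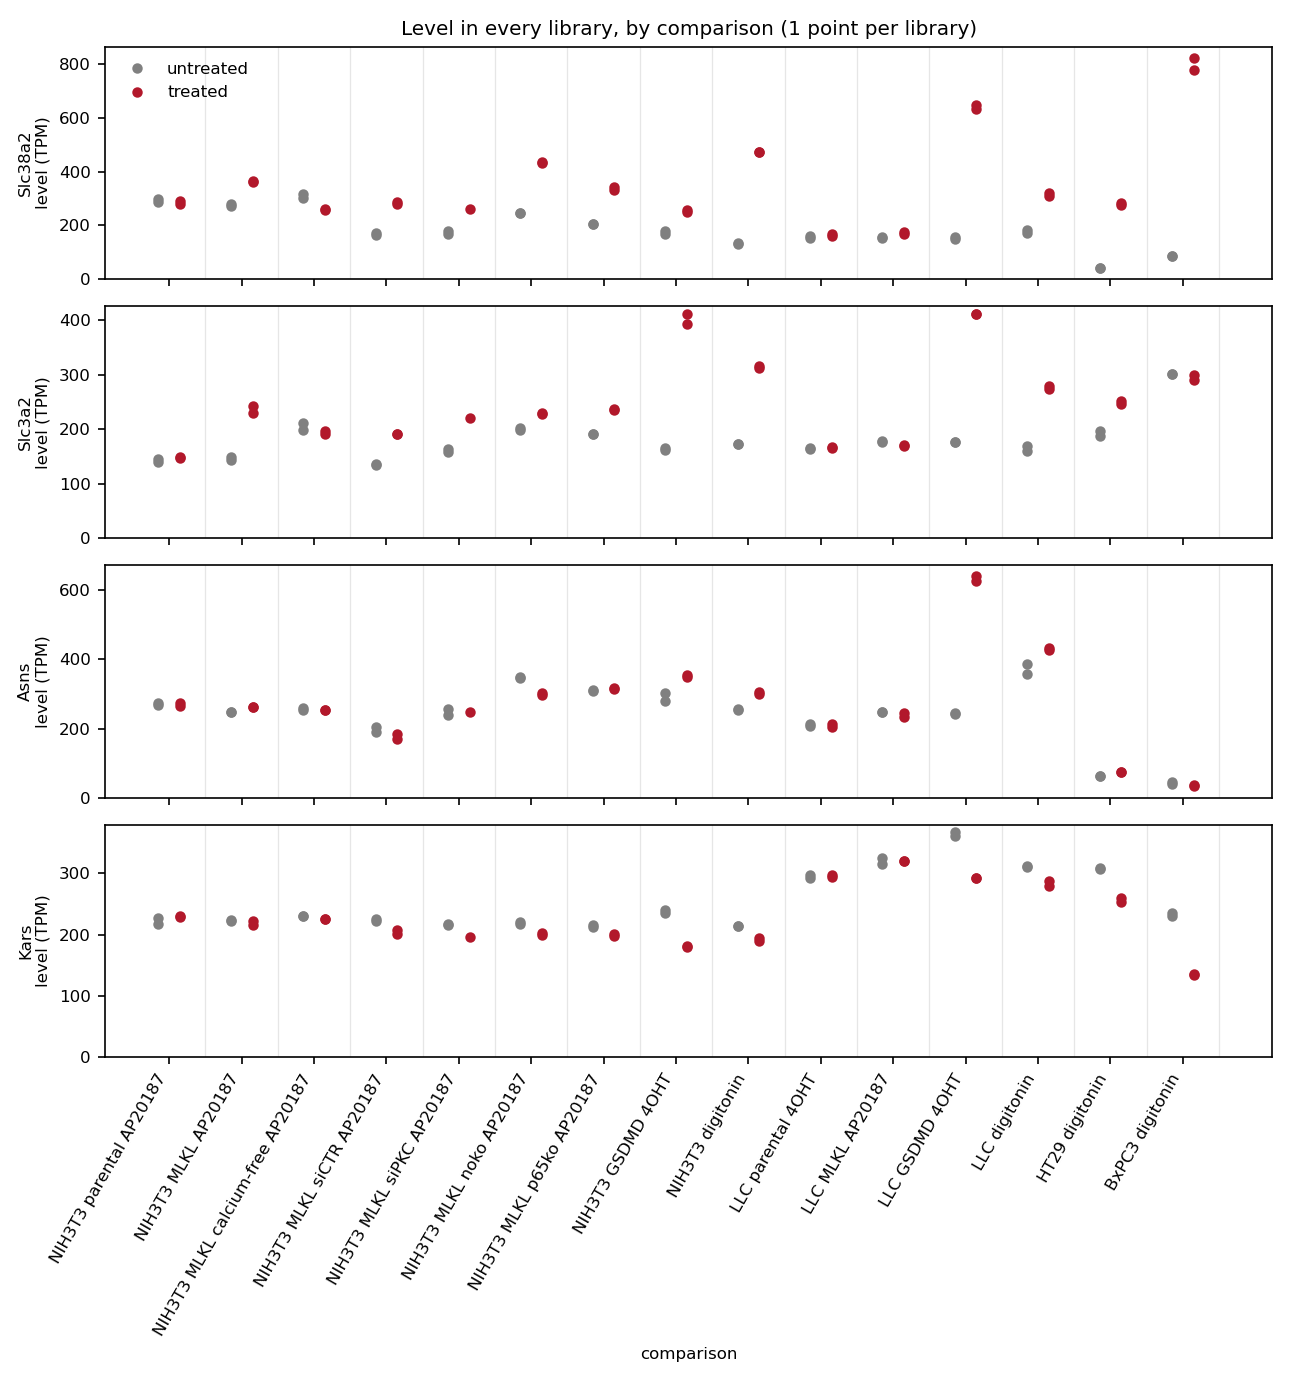
Level in TPM (y axes, starting at 0) of Slc38a2, Slc3a2, Asns and Kars in every library, untreated and treated, for the 15 comparisons on the x axis, with 1 point per library. Slc38a2 reaches 649 TPM in treated LLC GSDMD libraries and 824 TPM in treated BxPC3 libraries.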

How the data were processed

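Polyadenylated RNA was sequenced in 59 libraries. The deposited values are TPM, a unit inferred from the library totals. The submitters' processing notes name Salmon as the authors' tool and mm10 and hg19 as builds. Its version, the index and the step from transcripts to genes were not given in the sources used here. Each library's TPM summed to between 999910 and 999989 in mouse and between 999999 and 1000000 in human cells. TPM keep no depth, so depth is unknown and precision comes only from the spread between libraries. No count test was run, since TPM are not counts.

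Each comparison was fitted on log2(TPM + 1), a pseudocount of 1, with limma 3.58.1 (trend) in R 4.3.3 (data.table, version 1.17.8), with all groups of a line in 1 model (the human lines together, and NIH3T3 with LLC for the 3 differences between them), without a replicate block. Fold changes on this scale understate the change of low genes. Genes reaching 1 TPM in at least 2 compared libraries were tested, and called at a Benjamini-Hochberg adjusted p under 0.05. Of the 25 comparisons, 15 set treated against untreated cells, 1 set untreated cells of 2 media against each other, and 9 tested whether responses differ, on the same libraries. The lone siPKC library given AP20187 takes its variance from the other groups. Between libraries of a group the Pearson correlation across genes was 0.994 to 0.998, in 29 groups, and none were identical. The fit was tested on simulated data.

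Members, lists and tests were chosen with earlier results of these data known. Any member may be named. Library values were given for up to 4 members per role by absolute log2 difference among those past the threshold, for Asns, Slc7a11, Atf4, Chac1, Trib3, Ddit3 and Sesn2, for up to 3 other listed genes per list, and for up to 6 members each way in tests of a difference. Within this, members kept under every alternative were preferred after values were seen. Alternatives were a pseudocount of 0.1, no filter, quantile normalization, median centring, a fit on the compared groups alone, leaving out each library in turn and a replicate block. Promoters came from RefSeq GRCm38.p6 and figures from Python 3.11.15, numpy 2.4.6 and matplotlib 3.10.9.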

Additional observations from a re-analysis of the deposited data

Results flagged for a closer look

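In each comparison below, shares of all genes are given in the order more positive and more negative, and each count is by a limma test of the difference itself. Counts are of 35 members tested, but of 34 for siPKC and of 33 for the human lines. With AP20187, 8 members responded differently in MLKL than in parental NIH3T3 cells, all more positive (12.4% and 8.1% of all genes). The AP20187 response also differed between calcium-free and complete medium for 11 members, all more negative without calcium (10.8% and 11.1%). Between p65ko and noko cells it differed for 21, all more positive in p65ko (2.34% and 1.76%). Between siPKC and siCTR it differed for 2, more positive with siPKC (4.96% and 3.33%). The siPKC count, 2 of 34, is near the share of all genes. The 4OHT response differed between GSDMD and parental LLC cells for 32 members, 26 more positive and 6 more negative in GSDMD cells (22.4% and 49.4%), led by Slc6a9, Slc7a1 and Slc38a2. The digitonin response differed between BxPC3 and HT29 cells for 27 members, 3 more positive and 24 more negative in BxPC3 (20.6% and 43.5%), led by MARS, RARS and NARS. Between LLC and NIH3T3 cells the response differed for 11 members with MLKL, all more negative in LLC (5.87% and 7.05%). With GSDMD it differed for 32, 29 more positive and 3 more negative in LLC (33.5% and 27%). With digitonin it differed for 19, 6 more positive and 13 more negative in LLC (19.4% and 36%). The digitonin count of 19 of 35 is near the share of all genes.

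A signal appeared where the labels give none. In the LLC libraries of the digitonin arm, labelled as carrying no construct, Gsdmd reached 337 TPM and Esr1 33.0 TPM, above the 4 parental LLC libraries of the 4OHT arm.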

How the results depend on the processing

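Of 50 counts of members, a pseudocount of 0.1 moved 0 by more than 1.5 times, no filter 3, quantile normalization 11, only the libraries of the comparison 12 and median centring 23. Median centring gave 12 higher and 8 lower members in siCTR, 9 and 8 in siPKC, 7 and 11 in noko, 23 and 0 in p65ko, 6 lower in NIH3T3 GSDMD, 15 lower in NIH3T3 digitonin, 8 and 10 in HT29, 10 higher in BxPC3, 23 and 2 in untreated calcium-free cells, 3 lower in calcium-free AP20187 and 4 lower in LLC MLKL. Differences of responses became 1 lower (MLKL minus parental), 1 and 5 (siPKC minus siCTR), 7 higher (BxPC3 minus HT29) and 13 and 8 (LLC minus NIH3T3 digitonin). Quantile normalization gave 4 lower in NIH3T3 MLKL, 5 in calcium-free, 9 in p65ko, 13 in NIH3T3 digitonin and 5 in LLC MLKL. For differences it gave 2 lower (MLKL minus parental), 1 higher (calcium-free minus complete), 6 higher (BxPC3 minus HT29), 1 and 7 (LLC minus NIH3T3 MLKL) and 10 higher (LLC minus NIH3T3 digitonin). Without a filter 0 were lower in NIH3T3 MLKL, 3 in calcium-free and 1 in LLC MLKL. With only the libraries of the comparison there were 5 higher and 0 lower in NIH3T3 MLKL, 0 lower in calcium-free, 10 lower in siPKC, 3 lower in NIH3T3 digitonin, 1 and 0 in LLC MLKL, and 4 lower in LLC digitonin. For differences there were then 5 higher (MLKL minus parental), 7 lower (calcium-free minus complete), 0 higher (siPKC minus siCTR) and 3 lower (LLC minus NIH3T3 MLKL).

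Named genes changed sign in 14 cases. After quantile normalization Trib3 in siCTR was 0.25, Slc7a11 in noko 0.046, ASNS in BxPC3 0.12 and SLC7A11 in BxPC3 0.13. After median centring Asns was 0.032 in siCTR, 0.12 in siPKC and 0.024 in noko, Slc7a1 0.036 in noko, Mars 0.030 and Vars 0.037 in p65ko, SLC1A5 0.010 in HT29, and PYCR1 0.053, ASNS 0.18 and SLC7A11 0.19 in BxPC3. The cause was not tested.

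Leaving out 1 library at a time gave 8 to 10 higher and 0 to 1 lower in NIH3T3 MLKL, 1 to 2 lower in calcium-free, 0 to 1 each in LLC MLKL, 4 to 6 lower in LLC digitonin, 3 to 4 higher in BxPC3 and 5 to 8 higher in untreated calcium-free cells. For differences it gave 6 to 9 higher and 0 to 1 lower (MLKL minus parental), 0 to 1 higher and 9 to 13 lower (calcium-free minus complete), 1 to 4 higher and 0 to 1 lower (siPKC minus siCTR), 14 to 17 higher (p65ko minus noko), 2 to 3 higher (BxPC3 minus HT29), 7 to 11 lower (LLC minus NIH3T3 MLKL), 2 to 3 lower (LLC minus NIH3T3 GSDMD) and 4 to 6 higher (LLC minus NIH3T3 digitonin). A replicate block gave 2 lower members in calcium-free AP20187 and moved no other of 42 counts by more than 1.5 times. Same-numbered libraries shared only a number: the correlations of their deviations were -0.0992 to 0.133 over 14 comparisons. No block was fitted for LLC MLKL, where both treated libraries carry the number 2, or for siPKC. With 2 libraries per group and no depth, small differences may go undetected.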
